A study of Vaccinium virgatum with 9 samples.

Results

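Among the genes of rabbiteye blueberry fruit, 104 of 38665 listed in the count table stood at least 4 times as high after potassium sulfate as after water, and to a like extent whether the salt had been given at the young fruit stage or at flowering. The members were chosen from the measured values. A gene was taken when its mean abundance was at least 5 CPM (counts scaled by library total and composition) in both potassium groups, at least 4 times the water mean in both, and when the young fruit mean was between 0.67 and 1.5 times the flowering mean. The differences from water and the closeness of the timings are therefore properties of the choice and are given as a description.

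Fruit of 3 groups was sequenced, with 3 libraries in each. The plants were Vaccinium virgatum from a cross of Menditoo and Tifblue, 7 years old and grown singly in pots. Young fruit potassium plants received 10 g of potassium sulfate fertilizer each at the young fruit stage, flowering potassium plants the same amount at the flowering stage, and water plants water alone. Picking followed 90 days after flowering in all groups. The stage of treatment and the time left until picking can therefore not be told apart, nor can potassium and the sulfate given with it. Each library pooled 12 to 18 fruits, but nothing in the labels ties a replicate to its own plant, which leaves p-values to measure a spread among libraries that may be technical. Library totals ran from 15655016 to 18424967 counts. In whole fruit, fewer cells of a type and less RNA per cell cannot be told apart.

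Potassium is the main inorganic cation of plant cells. It carries charge balance and turgor, activates enzymes and accompanies the loading of sugar into the phloem that feeds fruit. The series asks how it bears on anthocyanins, the red to blue pigments that blueberry skin forms from phenylalanine through the flavonoid pathway, under regulators of the MYB, bHLH and WD40 classes. Which of the 104 genes belong to that pathway or to potassium transport could not be read from the table, which pairs no identifier with a name, a function or a position. Lists of pathway genes and of tissue markers could not be matched to any gene for the same reason. The genes are therefore described by their values, their rank and their identifiers, of which only 2 are printed. Of the 104, 70 carry identifiers that begin with Vadar and the other 34 share a second prefix and are called other loci here. Other loci made up 32.7% of the members, 26.8% of all entries and 22.3% of the 25728 genes with enough reads to be tested.

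Members reached from 5.29 to 1511 CPM as a mean over the 6 potassium libraries, with a median of 24.6 CPM. CPM is not scaled by transcript length, so a ranking of members is one of reads and not of transcript copies. In the young fruit potassium group the median member stood at 24.4 CPM, in the flowering potassium group at 26.2 CPM and in water at 3.37 CPM. The median ratio to water was 6.84 after potassium at young fruit, with a range of 4.04 to 69.2, and 7.24 after potassium at flowering, with a range of 4.03 to 67.2. Most ratios were moderate. Taking the lower of the 2 ratios of each gene, 28 members lay between 4 and 5, 39 between 5 and 8, 23 between 8 and 16, and 14 above 16. No member was silent in water: counts over the 3 water libraries ran from 13 to 8480, and 8 members had under 30.

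**Figure D1:**
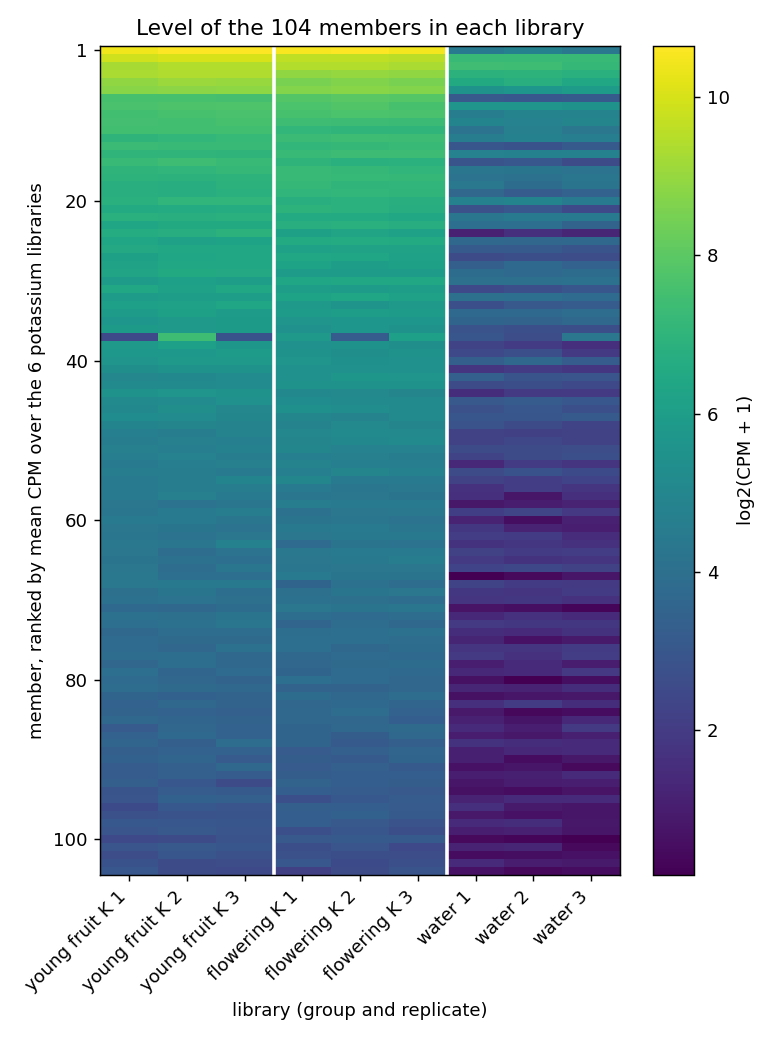
Level of each of the 104 members (down the page, ranked by mean CPM over the 6 potassium libraries) in each of the 9 libraries (across the page: young fruit potassium, flowering potassium, water), as log2(CPM + 1). The 6 potassium columns are alike and brighter than the 3 water columns in every row except the one ranked 37, where single libraries differ.

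The plot of members by library shows how evenly the replicates behaved. In 103 of 104 members all 6 potassium libraries lay above all 3 water libraries, against 21.5% of all 25728 genes tested. The lowest potassium library was at least 4 times the highest water library in 77 members, a share that was not computed over all genes tested. The 1 exception was an other locus, described below, and among the 103 the smallest ratio of the lowest potassium to the highest water library was 2.41. By edgeR's quasi-likelihood test over all genes (threshold 0.05 on the Benjamini-Hochberg adjusted p), all 104 members were higher after potassium at young fruit than after water, where 25.6% of all genes were higher, and all 104 after potassium at flowering, where 24.3% were. Since the members were chosen for these differences, nothing follows from the counts. The largest edgeR adjusted p among the 103 was 8.74e-08 at young fruit and 3.09e-07 at flowering. Genes next to the limits were not set apart from their neighbours: the lowest ratio to water inside was 4.03 and the highest outside 3.998, the lowest mean inside 5.02 CPM and the highest outside 4.88 CPM, and the ratios between timings ended at 0.679 and 1.47 inside and began at 0.657 and 1.53 outside.

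Summed over the members, the level was 9006, 9836 and 9720 CPM in the young fruit potassium libraries, 8970, 9116 and 8718 CPM in the flowering potassium libraries, and 1216, 1251 and 1191 CPM in water. The group means were 9521 ± 449, 8935 ± 202 and 1220 ± 30.2 CPM (SD, n = 3 each), or 7.81 times water at young fruit and 7.33 times water at flowering. A few members carried most of this sum. The first by reads took 16.4% of the summed potassium level, the first 6 took 49.2% and the 22 members above 100 CPM took 74.8%, whereas the 16 members below 10 CPM took 1.29%. Median ratios were close across read numbers. The median ratio to water at young fruit was 6.87 for members above 100 CPM and 7.27 for those below 10 CPM, and at flowering it was 7.10 and 8.61.

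The member with the most reads was an other locus. It had 1379, 1606 and 1578 CPM after potassium at young fruit, 1498, 1587 and 1418 CPM after potassium at flowering, and 21.7, 26.0 and 19.4 CPM in water. The 2 potassium groups overlapped fully and neither came near water. Its means were 1521 ± 124, 1501 ± 85.0 and 22.4 ± 3.35 CPM (SD, n = 3), 68.0 times water at young fruit and 67.2 times at flowering. Between the timings its log2 fold change was 0.02 ± 0.06 (SE, edgeR adjusted p = 0.870). By mean CPM it stood at place 43 of all entries after potassium at young fruit and 48 after potassium at flowering, but at place 7804 in water. It was the only member that combined so high a level with a ratio above 60 at both timings.

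The next by reads was Vadar_g16997.v1.2, the first of the 2 genes named by the fixed rule (the most reads among Vadar members past the threshold at both timings). It had 944, 1044 and 1040 CPM at young fruit, 808, 793 and 755 CPM at flowering, and 152, 149 and 150 CPM in water. The 3 groups did not overlap, and young fruit libraries were the highest. Its log2 fold change was 2.74 ± 0.05 (SE) for young fruit potassium over water and 2.37 ± 0.05 for flowering potassium over water (edgeR adjusted p = 2.62e-22 and 3.66e-21). Young fruit exceeded flowering by 0.36 ± 0.05 on the log2 scale (SE, edgeR adjusted p = 2.70e-06), which is a ratio of means of 1.29 and so inside the window that defines the set. It was already well read in water, at place 1137 of all entries, and stood at place 82 at young fruit and 118 at flowering.

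Vadar_g7648.v1.2, the other gene named by the rule, showed the same order of groups. Its CPM was 638, 674 and 683 at young fruit, 483, 513 and 482 at flowering, and 120, 124 and 113 in water, again without overlap. The log2 fold change was 2.47 ± 0.05 (SE) for young fruit over water, 2.03 ± 0.05 for flowering over water and 0.43 ± 0.05 for young fruit over flowering (edgeR adjusted p = 1.99e-21, 7.19e-20 and 2.85e-07). It entered the set close to the limit, with a ratio to water of 4.14 at flowering against 5.58 at young fruit.

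Other members with many reads or high ratios differed in which timing was higher. The member ranked 3, an other locus, was level between timings, at 613, 695 and 687 CPM at young fruit, 689, 689 and 647 CPM at flowering and 171, 167 and 142 CPM in water (young fruit over flowering, log2 fold change -0.02 ± 0.06, SE, edgeR adjusted p = 0.880). The Vadar gene ranked 7 was higher at flowering, with 194, 194 and 187 CPM at young fruit and 230, 247 and 237 CPM at flowering, against 7.48, 7.07 and 7.87 CPM in water. Its log2 fold change for young fruit over flowering was -0.31 ± 0.05 (SE, edgeR adjusted p = 9.36e-05), on top of ratios to water of 25.7 at young fruit and 31.8 at flowering. The Vadar gene ranked 24 was at the other end of the window. It had 101, 103 and 117 CPM at young fruit, 69.7, 77.5 and 71.5 CPM at flowering and 1.21, 1.98 and 1.45 CPM in water, so that its ratio to water was 69.2 at young fruit and 47.1 at flowering (young fruit over flowering, log2 fold change 0.56 ± 0.07, SE, edgeR adjusted p = 4.23e-06). These 3 genes, the locus with the most reads and the locus ranked 37 were picked for description after their values had been seen.

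**Figure D2:**
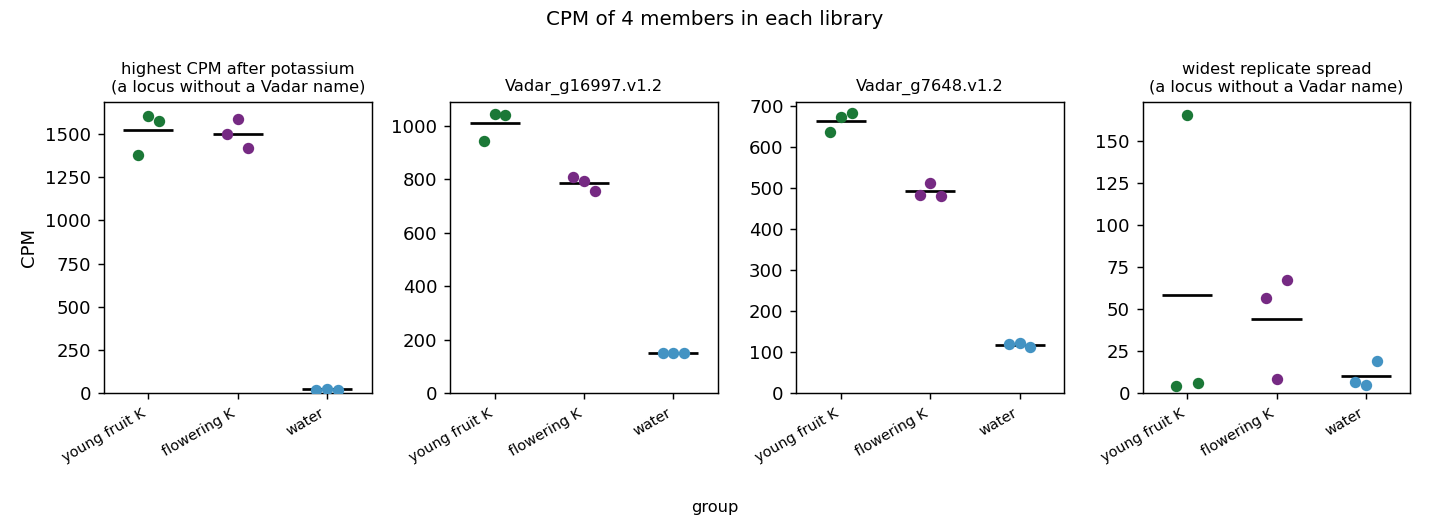
CPM in each library (points) and the group mean (line) of 4 members, with young fruit potassium, flowering potassium and water from left to right and each vertical axis starting at 0. In the first 3 panels every potassium library exceeds every water library and replicates lie close together; in the last panel, the member ranked 37, 1 young fruit library at 165 CPM stands above 4.55 and 6.07 CPM in the other two.

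The member ranked 37 met the rule only through a few high libraries. This other locus had 4.55, 165 and 6.07 CPM at young fruit, 56.5, 8.38 and 67.1 CPM at flowering, and 6.93, 5.19 and 19.0 CPM in water. High and low libraries occurred in all 3 groups, and the groups overlapped. The log2 fold change was 2.50 ± 0.84 (SE) for young fruit over water and 2.097 ± 0.85 for flowering over water (edgeR adjusted p = 0.0158 and 0.0452). Without young fruit replicate 2 the first became -0.95 (edgeR adjusted p = 0.219), and DESeq2 and limma with voom weights called neither difference (adjusted p = 0.149 and 0.486 at young fruit, 0.258 and 0.108 at flowering). The flowering difference also missed the threshold without water replicate 1 or 2 or flowering replicate 1 or 3 (edgeR adjusted p = 0.108 to 0.162) and under scaling by library size or upper quartile (edgeR adjusted p = 0.0623 and 0.0531). The young fruit difference missed it without water replicate 1 and with the replicate number as a block (edgeR adjusted p = 0.0628 and 0.0616). Other settings went the other way. Under the block the flowering difference passed (edgeR adjusted p = 0.0217). In fits to 2 groups both passed (edgeR adjusted p = 0.0175 at young fruit and 0.000683 at flowering). Without a filter the edgeR adjusted p fell to 4.98e-155 and 4.53e-107, so the p-values of this locus depended strongly on the fit. The locus stayed a member in 2 of the 9 selections that left out 1 library.

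Alike within a factor of 1.5 did not mean that no difference between the timings was measured. The ratio of young fruit to flowering means had a median of 1.01, was within 5% of 1 in 16 members and within 20% in 66. In edgeR's test of young fruit against flowering potassium, 39 of 104 members (37.5%) passed the threshold, 20 higher and 19 lower at young fruit, against 19.6% of all genes tested, 10.4% higher and 9.24% lower. The rule bounded this ratio, so the shares are not read against each other. Ratios ran from 1.14 to 1.47 in the 20 that were higher, with a median of 1.33, and from 0.679 to 0.847 in the 19 that were lower, with a median of 0.798. The libraries of the 2 timings did not overlap in 19 of the 20, in all 19 and in 15 of the other 65, and over all genes tested they did not overlap in 34.2%. In these 65 members the ratio ran from 0.714 to 1.33. These had fewer reads, with a median of 17.7 CPM against 74.5 and 72.9 CPM in the members that passed, and a wider standard error, with a median of 0.13 on the log2 scale against 0.08 in both. The median ratio in the 65 was 1.01. The smaller of the differences found in the 39 may not have been detectable in many of the 65 at this depth, which was not tested.

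Calls between the timings were also divided by kind of identifier, as a description. All 20 members that were higher at young fruit were Vadar genes. The 19 that were lower comprised 10 Vadar genes and 9 other loci. Of the 34 other loci none was higher at young fruit in edgeR's test, in DESeq2 or in limma with voom weights, and none at an unadjusted edgeR p under 0.05, where 13 were lower. Without a filter on low counts edgeR called 1 higher, the member ranked 37, whose replicates differed most. Its edgeR adjusted p between timings was 1.69e-05 in that fit, against 0.770 with the filter. Over all other loci tested 10.2% were higher and 12.9% lower at an unadjusted p under 0.05. Among the 70 Vadar genes 24 were higher and 12 lower at the unadjusted threshold, beside 3437 (17.2%) higher and 3123 lower of all 19981 Vadar genes tested. The median ratio of young fruit to flowering was 0.897 in the other loci and 1.07 in the Vadar genes, and it exceeded 1 in 10 of 34 and in 46 of 70. Other loci also had fewer reads, with a median of 17.2 CPM over the potassium libraries against 36.8 CPM for Vadar genes; the part of read number in the division was not tested. Over all genes tested, 6.07% of other loci were higher and 7.45% lower at young fruit, as were 11.6% and 9.75% of Vadar genes, and the median ratios were 0.990 and 0.997. No test of the division itself was made.

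**Figure D3:**
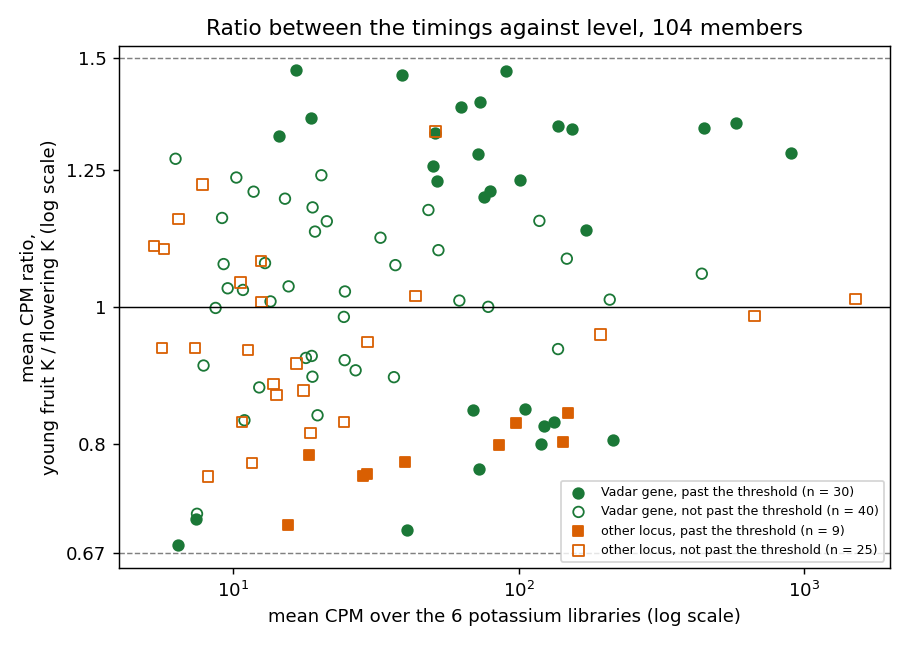
Ratio of mean CPM, young fruit over flowering potassium (vertical, log scale), against mean CPM over the 6 potassium libraries (horizontal, log scale) for the 104 members, with Vadar genes as circles, other loci as squares, filled where edgeR's adjusted p between the timings was under 0.05, and dashed lines at the limits 0.67 and 1.5. All 20 filled symbols above 1 are Vadar genes, while the 19 below 1 are 10 Vadar genes and 9 other loci.

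Genes outside the window but otherwise under the same limits were fewer. Among all entries with at least 5 CPM and 4 times water at both timings, 45 had a ratio of young fruit to flowering above 1.5 and 17 one below 0.67, beside the 104 members. Other loci were 4 of the 45 and 5 of the 17. The median ratio to water in the 45 was 11.9 at young fruit and 5.93 at flowering, and in the 17 it was 7.78 and 17.4. Both sets are defined by the same means, and no test between them and the members was made.

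The rule set no limit on the spread between replicates, although 1 high library can carry a group mean past its limits. Within the young fruit potassium group the coefficient of variation (CV, SD over mean of CPM) had a median of 0.0734 over the members, against 0.117 over all genes tested. In the flowering potassium group it was 0.0642 against 0.110. Since genes with many reads vary less and members had to reach 5 CPM, the comparison was also made by level. The members' median CV at young fruit was 0.131 at 5 to 10 CPM, 0.0983 at 10 to 25, 0.0731 at 25 to 100 and 0.0445 above 100, against 0.123, 0.0848, 0.0547 and 0.0393 for all genes tested at those levels. At flowering the members' values were 0.121, 0.0933, 0.0559 and 0.0357, against 0.120, 0.0801, 0.0493 and 0.0311. The members' median lay above that over all genes tested in each of these level classes in both groups. The difference was not tested. Within a potassium group the highest library was at most 1.5 times the lowest in 98 members and at most 2 times in 103. These shares were not computed over all genes tested.

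**Figure D4:**
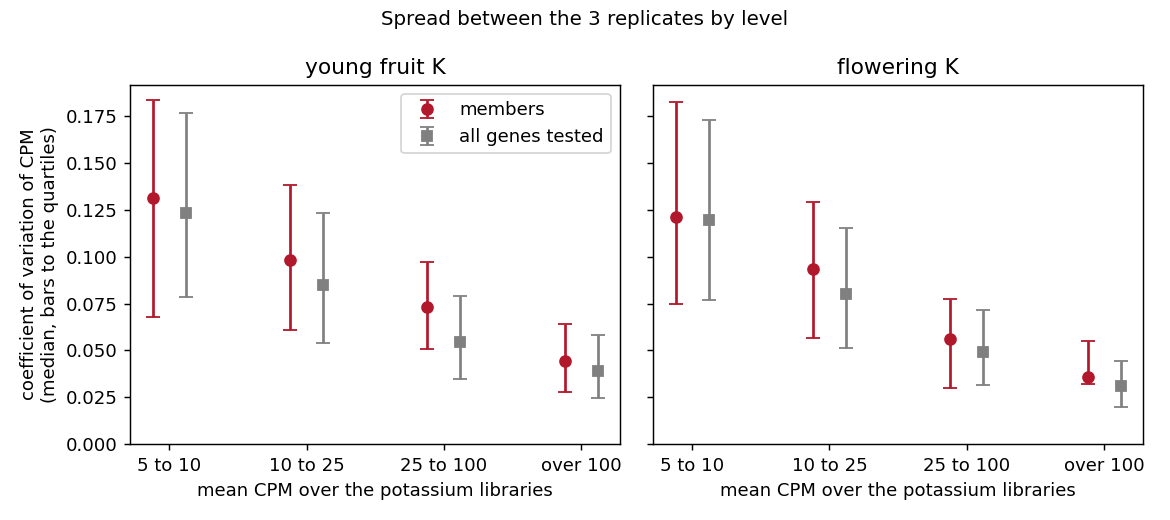
Coefficient of variation of CPM between the 3 replicates, by class of mean CPM over the potassium libraries, in the young fruit (left) and flowering (right) potassium groups; points are medians and bars reach the quartiles, for members (circles) and all genes tested (squares). Medians fall with level in both, from 0.131 to 0.0445 in members and from 0.123 to 0.0393 in all genes at young fruit.

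The number of members above their group's mean differed between libraries in both potassium groups. Young fruit replicate 1 lay above its group's mean log2 CPM in 35 of 104 members, and replicates 2 and 3 in 60 and 64. The median deviation of the members in replicate 1 was -0.05 on the log2 scale, against 0.00 over all genes tested. At flowering 49, 67 and 39 members lay above the group mean in replicates 1, 2 and 3, and in water 54, 53 and 49. Over all genes tested the share above the group mean ran from 50.6% to 51.4% in the young fruit libraries, from 48.7% to 53.1% in the flowering libraries and from 49.8% to 51.4% in the water libraries. All median deviations were within 0.05 of 0, small beside the ratios to water.

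Because every library entered the choice, the selection was repeated on 2 libraries of each group and read in the libraries left out. Without replicate 1, 116 genes were chosen, and in the libraries left out 101 of them were at least 4 times water at young fruit and 106 at flowering. Without replicate 2, 109 were chosen, with 99 and 95. Without replicate 3, 107 were chosen, with 95 and 97. Every one of these genes was at least 2 times as high as water at both timings in the libraries left out. The median ratio to water at young fruit was 6.98, 6.78 and 6.63 in the libraries that chose and 6.21, 6.86 and 7.09 in those left out. At flowering it was 6.78, 7.41 and 7.45 in the libraries that chose and 6.97, 7.31 and 7.12 in those left out. The ratio between the timings lay inside the window in 107, 99 and 95 of the genes. All limits of the rule together held in 91, 81 and 84 of the genes. Pooled, 84.6% of the 332 choices were at least 4 times water at both timings in libraries that had no part in choosing them. A gene can count in each of the 3 selections, so the 332 are not separate genes. The libraries left out may be technical repeats of those that chose, and the share was not computed over all genes.

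Some members had neighbouring identifier numbers. Of the 70 Vadar members, 18 (25.7%) had another member within 10 numbers, while 2.84% of all 28300 Vadar entries had a member that near. The table gives no positions, and whether numbers follow the genome is not given in the sources used here. The 18 fell into 8 runs, 7 of 2 members and 1 of 4. The window of 10 was chosen after the values had been seen. Whether counting divided reads between similar copies is not known for any of these runs, and members of a run are not independent of one another if it did.

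The run of 4 spanned 11 numbers, and its members were ranked 26, 38, 31 and 70. At young fruit they averaged 86.7 ± 2.24, 57.9 ± 8.42, 80.7 ± 8.25 and 15.9 ± 0.63 CPM in order of identifier, at flowering 71.8 ± 1.61, 43.6 ± 2.66, 62.9 ± 1.10 and 15.4 ± 1.09 CPM, and in water 7.40 ± 0.80, 3.03 ± 0.96, 5.67 ± 1.07 and 2.41 ± 0.27 CPM (SD, n = 3). Of the 4, 3 were higher at young fruit than at flowering in edgeR's test. None of the 6 other entries numbered between them was 4 times water at both timings. Since they are not members, this follows largely from the rule. Their ratios to water ran from 0.45 to 6.06 at young fruit and from 0.59 to 2.77 at flowering. The entry 10 numbers after the first member was higher than water at both timings, by 3.04 times at young fruit and 2.77 times at flowering. The entries 1 and 6 numbers after it were below water at both, at 0.61 and 0.45 times at young fruit and 0.59 and 0.73 times at flowering. Runs of 2 held pairs alike in ratio and pairs that were not. One pair of consecutive numbers stood 4.80 and 5.03 times water at young fruit and 4.75 and 5.58 times at flowering, and another 7.54 and 6.79 times at young fruit and 8.07 and 6.90 times at flowering. A pair 2 numbers apart differed widely in level, with 7.05 ± 0.50 and 192 ± 3.85 CPM at young fruit, 5.53 ± 1.02 and 238 ± 8.43 CPM at flowering, and 1.05 ± 0.60 and 7.47 ± 0.40 CPM in water.

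**Figure D5:**
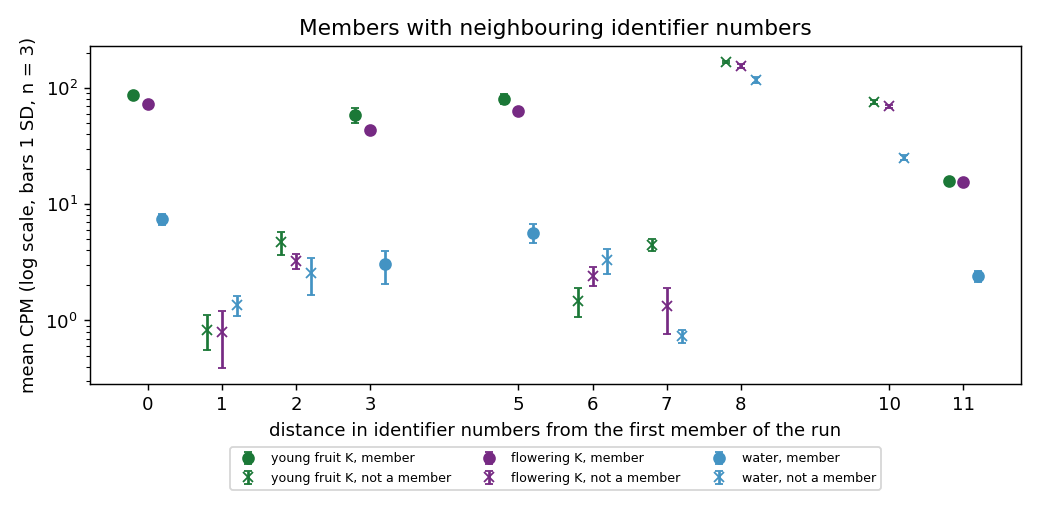
Mean CPM (vertical, log scale, bars 1 SD, n = 3) of the entries in the run of 4 members, placed by distance in identifier numbers from the first, with young fruit potassium, flowering potassium and water side by side; circles are members and crosses the 6 other entries. The 4 members lie far above water in both potassium groups, while the entries between them include some near or below their water level.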

How the data were processed

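RNA from whole fruit was sequenced in 9 libraries, 3 per group. The deposited table holds the authors' raw read counts for each gene and library, whole numbers that had not been normalized, per the file headers. The submitters' processing notes name HISAT2 2.1.0 and StringTie 1.3.4d. How they were used, what counted the reads, and on which build and strand, is not given in the sources used here, so counts may be rounded estimates and near-identical copies may share reads. Library totals were 15655016 to 18424967 counts, and groups were read from sample titles.

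CPM used TMM factors over all 38665 entries (edgeR 4.0.16, R 4.3.3). Tests were edgeR's quasi-likelihood F test on the 25728 genes kept by filterByExpr (minimum count 10, minimum total 15), with all 9 libraries in 1 fit and a term for each group, adjusted over all genes tested; the standard error is the log2 fold change over the square root of F. Deviations used log2 CPM with a prior count of 2. The procedure was tested on simulated data. Alternatives covered 3 scalings, no filter, DESeq2 1.42.0, limma 3.58.1, fits to 2 groups, the replicate number as a block, other limits of the rule and each library left out. Printed identifiers are the 2 Vadar members with the highest mean CPM over the 6 potassium libraries among those past the threshold against water at both timings. The members, lists and rules were chosen with earlier results of these data known.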

Additional observations from a re-analysis of the deposited data

Results flagged for a closer look

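A direct test between the potassium groups separated the timings in part of the set. The difference from water was larger after potassium at young fruit in 20 members and smaller in 19 others (edgeR adjusted p under 0.05). Over all genes tested 10.4% were higher and 9.24% lower at young fruit. The rule bounded this ratio, so the shares are not read against each other. Both genes named by the rule were among the 20, with a log2 fold change of young fruit over flowering of 0.36 for Vadar_g16997.v1.2 (edgeR adjusted p = 2.70e-06) and 0.43 for Vadar_g7648.v1.2 (edgeR adjusted p = 2.85e-07), higher in 3 of 3 libraries in both. Groups of 3 libraries are too small for the search for single libraries far from the others.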

How the results depend on the processing

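A ratio to water of at least 3 in place of 4 enlarged the set to 188 genes. Scaling by library size alone gave 93 members, all of them among the 104, and moved the summed level to 8693 CPM at flowering and 1292 CPM in water. Under it the middle log2 fold change over the genes tested was -0.14 at young fruit and -0.13 at flowering, against -0.02 at both timings with TMM. The other scalings gave 106 and 119 members, the genes kept by the filter 102, other limits of the rule 73 to 154, and leaving out 1 library 104 to 109, of which 97 to 102 were among the 104. Members past the threshold between timings numbered 39 under every scaling, 35 in DESeq2, 41 in limma and 45 in the fit to both potassium groups alone. Without a filter 41 passed, among them the member ranked 37, for which that fit gave far smaller edgeR adjusted p-values than the main fit. Without 1 library 30 to 42 passed. Of all genes tested, 13.8% to 22.4% passed in these fits. No pairing of libraries by replicate number was seen. Deviations of same-numbered libraries correlated at -0.04 to 0.05, and 3 of 9 libraries correlated best with their own number. With 3 libraries per group this cannot exclude shared plants or batches, on which the labels are silent. With the number as a block 40 members passed between timings. Under the block the member ranked 37 had a log2 fold change of -0.29 for young fruit over flowering, and in limma -0.98. Leaving out 1 library moved that value between -3.05 and 0.95 and its young fruit over water value between -0.95 and 3.26, since its reads sat mostly in a few libraries. The values near 0 between timings of the members ranked 1 and 3 ran from -0.019 to 0.087 and from -0.051 to 0.037 without 1 library. Both named genes kept their direction and side of the threshold in all alternatives run.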
